A study of Mus musculus with 4 samples.

Results

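The genes of glycolysis and of pyruvate and lactate handling were followed through single cells of the mouse tail end at embryonic day 8.5. The members were the 31 gene symbols of a fixed list, from the glucose transporters to the pyruvate dehydrogenase complex, of 31019 symbols in the matrices. They took 32 of 31055 rows, since Aldoa is listed under a second gene identifier that held 24 UMIs (unique molecular identifiers, each standing for 1 captured RNA molecule) over the 4 libraries, and that row was left out. Cells came from the caudal part of C57BL/6 embryos of Grhl3+/- parents. The WT embryos carried both Grhl3 alleles, and the Grhl3-null embryos carried none in any tissue, with genotypes read from the yolk sac. Grhl3 encodes a transcription factor of the surface ectoderm that is needed for closure of the neural tube. Cells of 5 WT embryos were pooled and run as 2 droplet reactions, and cells of 3 Grhl3-null embryos were pooled and run likewise. Every test between genotypes therefore compares 1 pool with 1 other pool. Since both reactions of a genotype drew on 1 cell suspension, their spread is technical, and no p below measures how embryos differ.

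Glycolysis splits glucose to pyruvate. Glucose enters through facilitated transporters, hexokinase traps it, phosphofructokinase commits it to the pathway, and lactate dehydrogenase turns pyruvate to lactate, which leaves by monocarboxylate transporters. Alternatively pyruvate enters the mitochondrion and is oxidised by the pyruvate dehydrogenase complex, which the pyruvate dehydrogenase kinases switch off. Progenitors in the growing tail of vertebrate embryos are known for high glycolytic activity that declines as presomitic cells differentiate, and many of these genes are targets of the hypoxia-inducible factors.

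Of 24239 barcodes, 20198 cells passed the filters, with 4781 to 5459 cells per library, a median of 33391 to 38070 UMIs per cell, and 209833527 to 226723903 UMIs in all per library. Pairs of libraries shared 5 to 7 barcodes. Grhl3 itself was found in 878 and 803 UMIs of the WT pool and in 12 and 14 UMIs of the Grhl3-null pool. Cells were clustered without the 31 genes, and clusters were named by markers that the study had derived from these same cells. A class name below is the study's name for cells with those markers. There were 11 named classes and 3 unnamed clusters with enough cells for a test in all libraries. Pre-somitic mesoderm held 509 and 494 WT cells, nearly all female, but 3 cells in each Grhl3-null library, so its levels are those of WT alone, and a tissue cannot be told apart there from a pool. The pools differed in sex. Of cells that could be called by Y-linked and Xist UMIs, 26.5% and 27.0% were male in the WT libraries and 55.6% and 57.5% in the Grhl3-null libraries. The gap was wider in some classes. Male cells made up 13.1% and 16.7% of the WT Neuroepithelium and 82.6% and 84.5% of the Grhl3-null Neuroepithelium, while in Somitic mesoderm the shares were 38.0% and 39.8% against 35.8% and 39.3%. Since few embryos entered each pool, sex here also separates some embryos from others, and calls are given with their log2 fold change in male and in female cells in the larger classes.

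The promoters of members that moved together between genotypes, or that are classical targets of hypoxia-inducible factors, are shown first. A script searched 250 bases before to 50 bases after each RefSeq start (GRCm38.p6) for ACGTG on both strands. ACGTG is 1 form of the core that these factors bind, and it lies within the E-box CACGTG, which counts as a match on each strand. It was present in 17 of the 30 members with a window (56.7%), against 21.8% of 27025 genes, and Slc2a3 has no window in the table. Per window, 21 of 46 (45.7%) held it against 19.6% of 32851 windows. The other form, GCGTG, was found in 21 of the 30 members (70.0%) and in 35.2% of all genes. The stretches below run from 160 bases before to 25 bases after a start, 5′ to 3′ on the gene's strand, with each ACGTG or its complement CACGT in capitals. The first 4 belong to genes that were higher in Grhl3-null Somitic mesoderm in cells of either sex, and Ldha holds the most matches of the stretches printed.
Slc2a1, strand +, chr4:119108585-119108769: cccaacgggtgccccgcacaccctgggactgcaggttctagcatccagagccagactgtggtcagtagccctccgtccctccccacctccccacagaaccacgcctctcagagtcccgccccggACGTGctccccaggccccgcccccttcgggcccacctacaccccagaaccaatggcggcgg
Hk2, strand -, chr6:82774430-82774614: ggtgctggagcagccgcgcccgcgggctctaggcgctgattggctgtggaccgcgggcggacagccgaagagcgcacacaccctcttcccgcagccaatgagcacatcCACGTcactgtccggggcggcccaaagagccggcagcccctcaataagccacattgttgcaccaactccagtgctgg
Pfkfb3, strand -, chr2:11502066-11502250: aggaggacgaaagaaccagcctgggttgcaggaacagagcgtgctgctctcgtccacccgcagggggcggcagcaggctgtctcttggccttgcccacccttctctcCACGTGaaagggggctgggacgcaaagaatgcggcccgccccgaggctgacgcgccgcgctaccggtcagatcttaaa
Slc16a3, strand +, chr11:120948907-120949091: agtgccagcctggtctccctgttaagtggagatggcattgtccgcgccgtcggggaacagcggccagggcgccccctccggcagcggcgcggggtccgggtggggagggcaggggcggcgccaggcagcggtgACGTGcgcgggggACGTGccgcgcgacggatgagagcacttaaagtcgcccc
Ldha, strand +, chr7:46845644-46845828: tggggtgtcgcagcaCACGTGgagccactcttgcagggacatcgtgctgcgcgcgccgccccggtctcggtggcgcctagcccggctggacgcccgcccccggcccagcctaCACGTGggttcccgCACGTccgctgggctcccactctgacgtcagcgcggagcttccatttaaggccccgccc
Pfkp and Pdk1 were higher in the same cells, and the same stretch of their promoters holds no ACGTG. Both stretches do hold GCGTG, the other form of the core, which is not put in capitals. GCGTG was also found in the windows of Slc2a1 and Pfkfb3 and not in those of Hk2 and Slc16a3.
Pfkp, strand -, chr13:6648747-6648931: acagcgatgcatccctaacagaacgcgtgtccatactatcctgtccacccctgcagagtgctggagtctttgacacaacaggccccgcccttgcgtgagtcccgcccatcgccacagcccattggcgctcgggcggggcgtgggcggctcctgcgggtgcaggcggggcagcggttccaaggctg
Pdk1, strand +, chr2:71873064-71873248: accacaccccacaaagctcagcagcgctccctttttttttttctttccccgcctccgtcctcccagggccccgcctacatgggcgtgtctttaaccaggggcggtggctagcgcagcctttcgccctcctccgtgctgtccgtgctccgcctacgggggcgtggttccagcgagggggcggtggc
A match shows the letters of a core and not that a factor binds there, and its absence says nothing of sequence outside the window.

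The levels of the members differed between classes most at the entry of glucose. A level is given as CPM (UMIs of the gene per 1000000 UMIs of that class in a library), as the WT mean ± SD over the 2 libraries. Since the kit tags the 3′ end of a molecule once, CPM needs no division by gene length. Classes are clusters of these cells, so their order is described and not tested. Slc2a1 (chr4:119108711-119137983, mm10, GENCODE vM21), the ubiquitous glucose transporter GLUT1, was highest in Neuroepithelium at 782 ± 9.78 CPM and was at 648 ± 26.1 CPM in Neuromesodermal progenitors. It was lowest in Pre-somitic mesoderm at 98.3 ± 7.36 CPM, with 172 ± 1.65 CPM in Somitic mesoderm and 157 ± 0.353 CPM in Paraxial mesoderm. Slc2a3 (chr6:122727809-122801640) encodes GLUT3, a transporter of high affinity. It stood at 1887 ± 149.5 CPM in Surface ectoderm / neural plate border, above Gut at 989.7 ± 28.8 CPM and Neuromesodermal progenitors at 529 ± 1.80 CPM. In Somitic and Paraxial mesoderm it was at 64.3 ± 7.16 and 68.5 ± 8.17 CPM, and those values did not differ beyond their spread. The lowest was Erythroid at 38.1 ± 3.14 CPM. Both transporters were thus higher in the progenitors and in the neural and surface epithelia than in Pre-somitic, Somitic and Paraxial mesoderm.

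Hexokinase was mostly Hk2 (chr6:82725025-82774454), the inducible form that binds mitochondria. Hk2 was highest in Neuromesodermal progenitors at 84.5 ± 6.92 CPM and in Somitic mesoderm at 81.5 ± 5.85 CPM, which did not differ beyond their spread, and lowest in Erythroid cells at 14.8 ± 5.30 CPM. Hk1, the form of red cells and many adult tissues, was highest elsewhere, with 38.6 ± 1.18 CPM in Erythroid cells, 13.9 ± 0.472 CPM in Endothelium / haematoendothelial progenitors and 6.58 ± 0.168 CPM in Neuromesodermal progenitors. Hk1 was 72.6% ± 6.61 of the UMIs of both hexokinases in Erythroid cells and 7.24% ± 0.379 in Neuromesodermal progenitors.

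In the upper pathway, Gpi1 (glucose-6-phosphate isomerase) lay between 151 ± 4.54 CPM in Erythroid cells and 271 ± 5.84 CPM in the unnamed cluster 10. The WT cells of cluster 10 had the fewest UMIs of the classes, a median of 16145 and 16254. Pre-somitic mesoderm came next with 26677 and 28254.5. Of the 3 phosphofructokinase genes, Pfkl, the liver form, gave 92.0% ± 0.283 of their UMIs over all cells, and it ranged from 85.8 ± 3.11 CPM in Erythroid cells to 215 ± 8.03 CPM in Neuromesodermal progenitors. Pfkp, the platelet form, was highest in Endothelium / haematoendothelial progenitors at 15.9 ± 2.22 CPM, and Pfkm, the muscle form, did not pass 13.3 ± 2.00 CPM, its mean in Intermediate mesoderm. Pfkm shares same-strand exons with Gm26513, and Pfkfb2 with Gm29427, so both values are uncertain. Pfkfb3 makes fructose-2,6-bisphosphate, the activator of phosphofructokinase. It was at 15.6 ± 1.35 CPM in Neuromesodermal progenitors and 1.07 ± 0.796 CPM in Erythroid cells, while the related Pfkfb2 held 684 UMIs in all and stayed at or below 1.33 ± 0.963 CPM. Aldolase was Aldoa nearly everywhere, from 635 ± 9.95 CPM in Erythroid cells to 1189.9 ± 15.2 CPM in Pre-somitic mesoderm. Aldoc, the brain form, stood out in Paraxial mesoderm at 41.6 ± 0.239 CPM and Somitic mesoderm at 26.6 ± 1.97 CPM, against 4.93 ± 0.344 CPM in Neuromesodermal progenitors. Its share of the UMIs of both aldolases was 4.29% ± 0.0603 in Paraxial mesoderm and 0.554% ± 0.0409 in Neuromesodermal progenitors. Tpi1 (triosephosphate isomerase) ranged from 515 ± 5.80 CPM in Erythroid cells to 847 ± 14.5 CPM in Neuromesodermal progenitors.

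The lower pathway held the most abundant members. Gapdh (glyceraldehyde-3-phosphate dehydrogenase) lay between 2065 ± 159.7 CPM in Erythroid cells and 4712 ± 111 CPM in cluster 10. Pgk1 (phosphoglycerate kinase) reached 1293 ± 0.361 CPM in Pre-somitic mesoderm and was at 480.3 ± 31.9 CPM in Erythroid cells. Pgam1 (phosphoglycerate mutase) was at 1573 ± 22.8 CPM in Somitic mesoderm and 385 ± 49.8 CPM in Erythroid cells. Apart from Erythroid cells, the range of these 3 genes over the classes was narrow beside that of the transporters. Eno1, the ubiquitous enolase, ranged from 373 ± 52.6 CPM in Erythroid cells to 1450.5 ± 149.8 CPM in cluster 10. Its reads can be split with the near-identical Eno1b, which held 2344 UMIs against 823218 for Eno1, and Eno1 was higher in reaction 2 than in reaction 1 of both pools, at 880.5 and 975 CPM in WT and 886 and 992 CPM in Grhl3-null cells. Eno3, the muscle enolase, was highest in Intermediate mesoderm at 84.5 ± 6.97 CPM and in Mesenchyme 2 at 73.7 ± 1.68 CPM. Eno2, the neuronal form, held 187 UMIs and was highest in Intermediate mesoderm at 3.04 ± 0.0326 CPM, followed by Neuroepithelium at 0.286 ± 0.0784 CPM. Pkm (pyruvate kinase, both splice forms counted as 1 gene) ranged from 789.8 ± 59.5 CPM in Erythroid cells to 2519 ± 32.2 CPM in Pre-somitic mesoderm.

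Lactate genes split by tissue. Ldha (chr7:46841475-46855627), the lactate dehydrogenase subunit that favours making lactate, was at 3229 ± 68.5 CPM in Pre-somitic and 3035 ± 0.271 CPM in Somitic mesoderm, and was at 2023 ± 2.31 CPM in Mesenchyme 2 and 1453 ± 109 CPM in Erythroid cells. Ldhb (chr6:142490249-142507957), the subunit that favours using it, was highest in Gut at 253 ± 6.65 CPM, and Notochord followed at 95.4 ± 0.835 CPM. Ldhb made 9.89% ± 0.0355 of the UMIs of both subunits in Gut and 1.12% ± 0.108 in Paraxial mesoderm. Slc16a1 (MCT1, a lactate and pyruvate transporter) was likewise highest in Gut at 335 ± 13.8 CPM, above Surface ectoderm / neural plate border at 146 ± 3.61 CPM. Slc16a3 (MCT4, the exporter of glycolytic cells) showed 153 ± 3.83 CPM in Pre-somitic, 150.4 ± 4.64 CPM in Somitic mesoderm and 36.8 ± 5.07 CPM in Erythroid cells. Gut thus had the highest Ldhb and Slc16a1 and Pre-somitic mesoderm the highest Ldha and Slc16a3, although the first places of Slc16a3 lay within their spread of each other.

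Of the genes that bring pyruvate into the mitochondrion, Mpc1, Mpc2 and Pdhb were, by contrast, highest in Erythroid cells. Mpc1 and Mpc2, the subunits of the mitochondrial pyruvate carrier, were at 93.2 ± 12.0 and 75.6 ± 2.76 CPM there. Mpc1 was at 7.70 ± 0.0069 CPM in Surface ectoderm / neural plate border, its lowest class, and Mpc2 at 28.8 ± 1.80 CPM in Pre-somitic mesoderm. Of the pyruvate dehydrogenase complex, Pdhb was at 101 ± 15.1 CPM in Erythroid cells and 60.9 ± 2.51 CPM in cluster 11, Pdha1 between 87.1 ± 1.13 CPM in Endothelium / haematoendothelial progenitors and 128 ± 2.66 CPM in Surface ectoderm / neural plate border, and Dlat at 56.7 ± 0.189 CPM in Pre-somitic mesoderm. Pdk1, the kinase that shuts off the complex, was at 51.0 ± 6.34 CPM in Endothelium / haematoendothelial progenitors and 50.7 ± 4.46 CPM in Erythroid cells, which did not differ beyond their spread. Pdk3 was highest in Intermediate mesoderm at 84.9 ± 6.88 CPM and lowest in Erythroid cells at 17.1 ± 3.50 CPM. Summed over the 31 genes, Erythroid cells gave 0.809% and 0.764% of their WT UMIs to the pathway, against 1.76% and 1.75% in Neuroepithelium. Haemoglobin genes summed to 175379 and 194283 CPM, out of 1000000, in the WT Erythroid cells. Other genes thus still held most of the UMIs there. The share of the 31 genes without haemoglobin UMIs was not computed, and the part of haemoglobin in the low share was not tested. The class with the highest level was the same for 25 of the 31 members when cells were classed by marker score, for 28 when the members were kept in the clustering, for 23 in female cells alone and for 10 in male cells alone. Pre-somitic mesoderm, Intermediate mesoderm, Notochord, Erythroid cells and cluster 10 have no level in male cells, having fewer than 20 in a WT library, and these classes are the highest of 19 members.

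**Figure D1:**
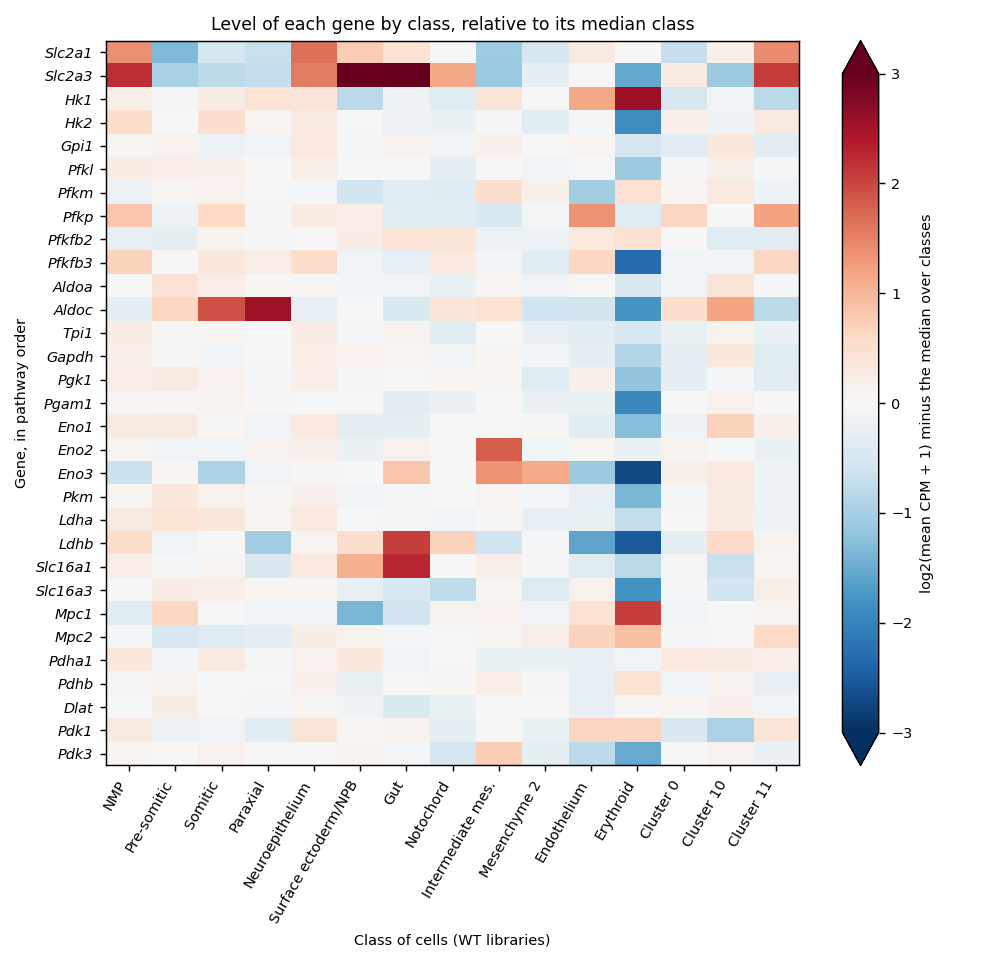
Colours give log2(mean WT CPM + 1) of each of the 31 genes (rows, in pathway order) in 15 classes (columns), minus the median of that gene over the classes; colours stop at -3 and 3. Slc2a3 stands out in Surface ectoderm / neural plate border and Gut, Hk1 and Mpc1 in Erythroid cells, Aldoc in Paraxial and Somitic mesoderm, and Ldhb and Slc16a1 in Gut.

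The loss of Grhl3 was compared with WT within each class by edgeR's quasi-likelihood test on summed UMIs, fitted over all genes. A gene is called here when its Benjamini-Hochberg adjusted p is below 0.05. Fold changes are Grhl3-null over WT, and a negative log2 value means lower in Grhl3-null cells. The median log2 fold change over all genes tested lay between -0.0014 and 0.0099 in the classes.

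In Neuromesodermal progenitors, 17 of 30 members tested were called, 14 higher and 3 lower in Grhl3-null cells, where 18% of all genes tested were called (7.42% higher and 10.6% lower). Over the members tested, the median log2 fold change was 0.13. The cells compared were not alike throughout. At a finer clustering, 1 cluster of this name, led by Pou5f1 and Cdx1, held 250 and 249 WT cells but 0 and 1 Grhl3-null cells. Its part in the differences of this class was not tested. Among genes at 100 CPM or more, which are easier to call, 8 of 15 members were called against 39.9% of all such genes. Pfkp rose the most, from 10.9 and 10.8 CPM in the WT libraries to 21.5 and 22.4 CPM in the Grhl3-null libraries (1.99-fold, log2 fold change 1.0 ± 0.058 (SE), adjusted p = 1.3e-06). Pfkfb3 was at 16.5 and 14.6 CPM in the WT libraries and at 24.7 and 27.1 CPM in the Grhl3-null libraries (log2 fold change 0.71 ± 0.066 (SE), adjusted p = 6.9e-05). Both genes bear on the committed step. Neither had a WT library within the Grhl3-null range, which says little with 2 libraries in each group. Pdk1 was at 39.9 and 38.3 CPM in the WT libraries and at 55.5 and 62.0 CPM in the Grhl3-null libraries (1.48-fold, log2 fold change 0.57 ± 0.047 (SE), adjusted p = 2.7e-05). For Hk2 the values were 89.4 and 79.6 CPM against 122 and 112 CPM (log2 fold change 0.45 ± 0.058 (SE), adjusted p = 0.00046), and for Slc2a3 529.9 and 527 CPM against 664 and 685 CPM (log2 fold change 0.33 ± 0.028 (SE), adjusted p = 3.6e-05). The entry of glucose, its trapping, the committed step and the brake on pyruvate oxidation were thus all represented among the genes that rose. Slc16a3 (log2 fold change 0.26, adjusted p = 0.00027), Tpi1 (0.20, 0.00077) and Pgk1 (0.12, 0.01) rose by less. These 8 genes were called and higher in male cells alone and in female cells alone too. The share of all genes that passed this joint rule was not counted, in this class or any other, so such counts have no background beside them. Hk1, Slc2a1, Pfkl, Aldoc, Slc16a1 and Pdk3 also rose, by log2 0.14 to 0.55, over all cells without a call in each sex, and of these Slc2a1 turned to -0.024 in female cells and Aldoc to -0.23 in male cells. The members that fell were Ldhb, Mpc1 and Gapdh, of which Gapdh rose in male cells (0.12). With scaling to library totals, which raised the share of higher calls over all genes from 41.1% to 53.9%, the members split 14 higher to 1 lower. Without WT replicate 1, 10 members were called, and without WT replicate 2, 11; of the 8 genes called in each sex, Pgk1 alone lost its call without WT replicate 1.

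Somitic mesoderm is the study's name for a cluster led here by Dll1 and Tbx6, and is not taken to mean formed somites. Its 30 leading genes held 12 of the study's markers for this class and 5 for Pre-somitic mesoderm. Tcf15, Meox1 and Foxc2 led Paraxial mesoderm instead. Balanced in sex between the pools, Somitic mesoderm likewise had more members higher than lower. Called were 14 of 30 members, 12 higher and 2 lower, against 11.5% of all genes (5.75% higher and 5.73% lower), with 6 of 13 against 28.4% at 100 CPM or more. Their median log2 fold change was 0.11. Pfkp was at 9.40 and 8.77 CPM in the WT libraries and at 19.5 and 19.6 CPM in the Grhl3-null libraries (2.14-fold, log2 fold change 1.1 ± 0.084 (SE), adjusted p = 8.0e-07). Slc2a3 was at 59.3 and 69.4 CPM in the WT libraries and at 124 and 112 CPM in the Grhl3-null libraries (1.82-fold, log2 fold change 0.87 ± 0.063 (SE), adjusted p = 4.5e-07), and Slc2a1 at 173 and 170.5 CPM in the WT libraries and at 265 and 263 CPM in the Grhl3-null libraries (1.53-fold, log2 fold change 0.62 ± 0.035 (SE), adjusted p = 2.7e-08). Both transporters, low in WT Somitic mesoderm, were in Grhl3-null cells still well below their level in Neuromesodermal progenitors. Pfkfb3 gave 12.1 and 11.4 CPM against 20.9 and 19.9 CPM (log2 fold change 0.79 ± 0.079 (SE), adjusted p = 1.4e-05), Pdk1 29.7 and 28.6 CPM against 47.4 and 53.4 CPM (log2 fold change 0.78 ± 0.058 (SE), adjusted p = 6.8e-07) and Hk2 85.7 and 77.4 CPM against 119 and 112 CPM (log2 fold change 0.50 ± 0.051 (SE), adjusted p = 1.8e-05). None of these genes overlapped between the genotypes. With 2 libraries in each group this says little. In Erythroid cells 19 of 27 members lay apart and 0 were called. Slc16a3 (0.35, adjusted p = 3.6e-05) and Slc16a1 (0.19, adjusted p = 0.027) rose as well, and all 8 were called and higher in each sex taken alone. Tpi1, Pfkl, Pgk1 and Pgam1 rose by log2 0.11 to 0.26 and were called in female cells but not in male cells. Slc2a3, Hk2, Pfkp, Pfkfb3, Slc16a3 and Pdk1 were in this set in Neuromesodermal progenitors as well, which share the libraries and hence the pools with Somitic mesoderm. DESeq2 called 9 members here and gave no adjusted p for 3, Pfkp, Pfkfb3 and Mpc1, while Slc16a1 was not called by DESeq2 or without WT replicate 2 or Grhl3-null replicate 2. In this class and in Neuromesodermal progenitors, no called member changed sign when cells were classed by marker score or clustered more finely. Finer clusters of the same name were summed again, as were those of Neuromesodermal progenitors, so no subcluster was tested alone. Further calls were Mpc1 (-0.33, male -0.41, female -0.23) and Ldhb (-0.62, male 0.16, female -1.08) lower.

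**Figure D2:**
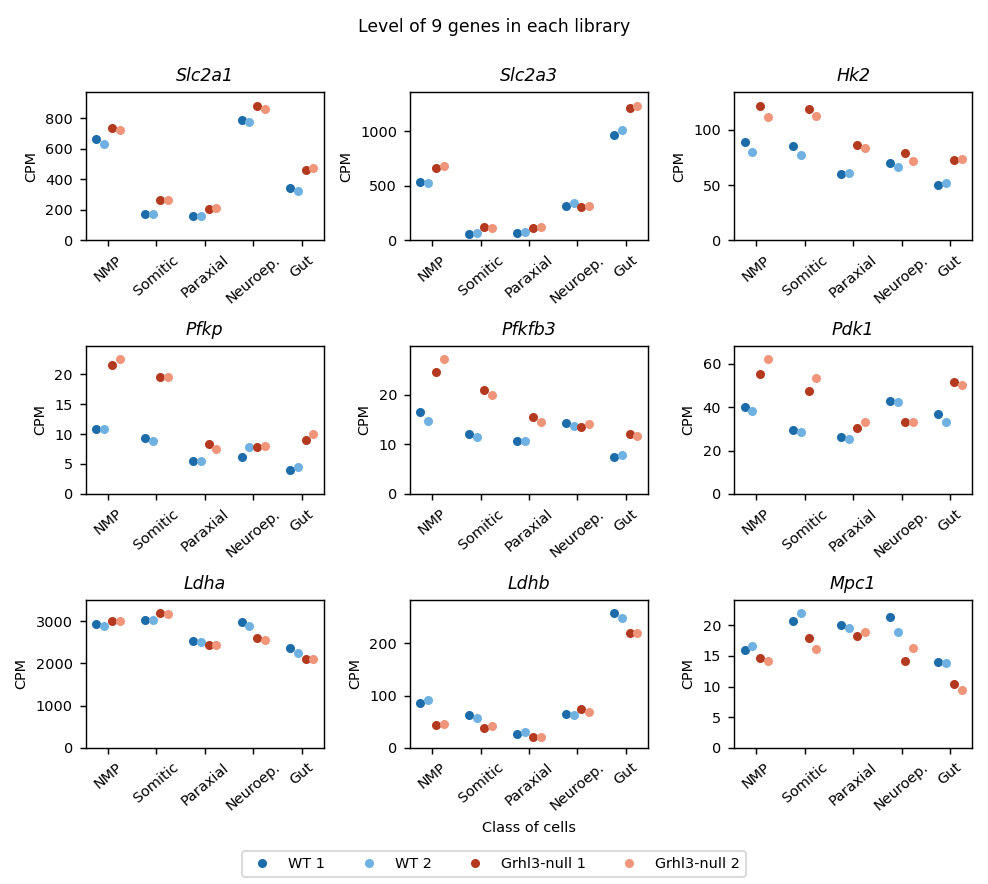
Points give the CPM of 9 genes in each of the 4 libraries (WT blue, Grhl3-null red) for 5 classes of cells; each panel has its own axis from 0. Pfkp, Pfkfb3, Hk2 and Pdk1 lie higher in both Grhl3-null libraries in Neuromesodermal progenitors and Somitic mesoderm, and Ldhb lies lower.

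Gut had 15 of 30 members called, 9 higher and 6 lower, against 19.9% of all genes (9.76% higher and 10.1% lower), and 9 of 16 against 41.4% at 100 CPM or more. Their median log2 fold change was 0.051, and with library totals the split was 10 to 6. Over all cells the transporters of glucose and lactate rose, and Ldha, Gapdh and Pkm fell. Slc2a1 was at 345 and 325 CPM in the WT libraries and at 459 and 476 CPM in the Grhl3-null libraries (log2 fold change 0.44 ± 0.043 (SE), adjusted p = 2.1e-07), and Slc16a1, already high in this tissue, at 326 and 345 CPM in the WT libraries and at 459 and 475 CPM in the Grhl3-null libraries (log2 fold change 0.44 ± 0.044 (SE), adjusted p = 3.1e-07). Hk2 (50.5 and 52.1 CPM against 72.5 and 73.6 CPM, log2 fold change 0.47 ± 0.055 (SE), adjusted p = 2.3e-06) and Pdk1 (36.9 and 33.1 CPM against 51.4 and 50.5 CPM, log2 fold change 0.50 ± 0.063 (SE), adjusted p = 7.6e-06) rose too. These 4 genes were called and higher in each sex alone. Pfkp had the largest change, 3.94 and 4.48 CPM against 9.05 and 9.92 CPM (2.20-fold, log2 fold change 1.14 ± 0.16 (SE), adjusted p = 2.6e-05), which was called in female cells (1.7) and not in male cells (0.59, adjusted p = 0.11). Ldha fell from 2355 and 2257 CPM to 2105 and 2112 CPM (log2 fold change -0.17 ± 0.036 (SE), adjusted p = 0.0021), and the log2 fold changes of Gapdh, Pkm, Eno3, Ldhb and Mpc1 ran from -0.15 to -0.53. In female cells alone Ldha was at log2 -0.0049 (adjusted p = 0.97) and Gapdh at -0.089 (adjusted p = 0.23). Males were 34.9% and 29.2% of the WT Gut cells and 61.6% and 64.1% of the Grhl3-null ones. Also called were Pfkfb3 (0.61, male 0.44, female 0.56), Slc16a3 (0.42, male -0.20, female 1.02), Slc2a3 (0.27, male 0.039, female 0.47) and Pdha1 (0.16, male 0.053, female 0.25) higher.

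In Neuroepithelium the abundant enzymes were lower over all cells. Called were 16 of 30 members, 3 higher and 13 lower, against 21% of all genes (9.53% higher and 11.4% lower), and 11 of 14 against 37.6% at 100 CPM or more. The tested members had a median log2 fold change of -0.12, and library totals gave 3 to 12. Pkm was at 2275 and 2209.7 CPM in the WT libraries and at 1934 and 1939.8 CPM in the Grhl3-null libraries (log2 fold change -0.24 ± 0.028 (SE), adjusted p = 4.6e-05), and Ldha at 2978 and 2896 CPM in the WT libraries and at 2601 and 2559.8 CPM in the Grhl3-null libraries (log2 fold change -0.21 ± 0.028 (SE), adjusted p = 0.00013, with 0.045 in male and -0.12 in female cells). Pdk1, which rose in the progenitors, here fell over all cells, with 42.9 and 42.4 CPM against 33.2 and 33.3 CPM (log2 fold change -0.39 ± 0.047 (SE), adjusted p = 6.2e-05), and was at -0.43 in male and 0.16 in female cells. Mpc1 had the largest fall (log2 -0.43, adjusted p = 0.0027, with 0.059 in male and -0.94 in female cells). Slc2a1, Ldhb and Slc16a1 rose by log2 0.13 to 0.22, of which Slc2a1 was at -0.20 in male and 0.53 in female cells and Ldhb at 0.0052 in male and 0.59 in female cells. Eno1 was called although its libraries overlapped (1054 and 1165 CPM against 959.8 and 1056 CPM). Here the sexes parted. Gapdh was lower over all cells (-0.14), higher in male cells (0.54, adjusted p = 9.3e-12) and lower in female cells (-0.31, adjusted p = 4.4e-06). Its male levels were 2881 and 2899 CPM in WT and 3972 and 4158 CPM in Grhl3-null cells, and its female levels 4737 and 4805 against 4092 and 3830.4 CPM. Gpi1, Aldoa, Eno1, Eno3 and Pkm too were called higher in male and lower in female cells. At a finer clustering 9 members were called in this class. Slc16a1 was the 1 member called in the same direction in male, female and all cells (0.31, 0.23 and 0.22). Genotype, sex and embryo cannot be told apart in this class. The other calls were Pfkl (-0.15, male 0.054, female 0.10), Tpi1 (-0.16, male -0.027, female -0.011), Pgk1 (-0.17, male 0.23, female -0.038) and Slc16a3 (-0.30, male 0.11, female -0.12) lower.

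In Mesenchyme 2, as in Neuroepithelium, most called members were lower, with 17 of 29 called, 3 higher and 14 lower, against 20.1% of all genes (10.2% higher and 9.94% lower), and 9 of 11 against 32.4% at 100 CPM or more. Members tested had a median log2 fold change of -0.15. Over all cells Pgk1 (-0.30, male 0.19, female -0.56), Pkm (-0.29, male 0.15, female -0.48), Ldha (-0.26, male 0.25, female -0.46), Aldoa (-0.24, male 0.12, female -0.40) and Gpi1 (-0.36, male 0.15, female -0.54) were lower, each with adjusted p at or under 0.00025. In male cells Pgk1, Pkm and Ldha were instead called higher. Slc2a1 rose over all cells, 186 and 165 CPM against 301 and 255 CPM (log2 fold change 0.66 ± 0.07 (SE), adjusted p = 1.2e-05), but was lower in male cells (-0.64) and higher in female cells (1.5). Ldhb alone kept its call and direction in both sexes. It was at 56.4 and 58.8 CPM in the WT libraries and at 24.1 and 24.7 CPM in the Grhl3-null libraries (2.36-fold lower, log2 fold change -1.24 ± 0.059 (SE), adjusted p = 3.6e-09), with -1.01 in male and -0.84 in female cells. Males were 13.7% and 15.2% of WT and 72.9% and 71.6% of Grhl3-null cells of this class. The summed dissociation and stress genes were at 305 and 309 CPM in WT against 221 and 234 CPM in Grhl3-null libraries, and their part was not tested. DESeq2 called 10 members, and 11 were called without Grhl3-null replicate 2. When cells were classed by marker score, 9 of the members called here changed sign, Slc2a1 among them, and at a finer clustering 4 members were called and 5 changed sign. The summed axial progenitor genes were lower too, at 153 and 133 CPM in WT against 81.7 and 82.7 CPM in Grhl3-null libraries, with 0 higher and 3 lower of 6, and Cdx2 at log2 fold change -0.95, adjusted p = 3.4e-08. The other calls were Pdk3 (0.25, male 0.71, female 0.11) and Pdha1 (0.21, male 0.07, female 0.34) higher and Gapdh (-0.15, male 0.084, female -0.21), Tpi1 (-0.17, male 0.19, female -0.36), Dlat (-0.17, male 0.11, female -0.18), Pfkl (-0.21, male 0.0010, female -0.29), Slc2a3 (-0.23, male -0.67, female 0.28), Pdk1 (-0.28, male -0.17, female -0.35), Mpc1 (-0.39, male 0.23, female -0.96) and Aldoc (-0.66, male 0.74, female -1.53) lower.

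Paraxial mesoderm had 16 of 30 members called, 7 higher and 9 lower, against 22.4% of all genes (9.52% higher and 12.9% lower), and 8 of 12 against 47.6% at 100 CPM or more. Members tested had a median log2 fold change of -0.077, and library totals gave 8 to 7. Males were 12.9% and 14.7% of the WT cells and 82.5% and 83.7% of the Grhl3-null ones. Over all cells, transporters and genes of the first steps were among those that rose, and Aldoa (-0.25, male -0.017, female -0.068), Pkm (-0.23, male 0.13, female -0.25), Pgam1 (-0.11, male -0.072, female 0.066) and Pgk1 (-0.093, male 0.17, female -0.056) among those that fell. Slc2a3 was at 62.7 and 74.2 CPM in the WT libraries and at 116 and 125 CPM in the Grhl3-null libraries (1.73-fold, log2 fold change 0.79 ± 0.061 (SE), adjusted p = 3.1e-06), and was called and higher in male (0.98) and female cells (0.98). Hk2 (0.47, male 0.27, female 0.69), Slc2a1 (0.37, male 0.093, female 0.76), Pfkfb3 (0.46, male 0.23, female 0.57) and Pfkp (0.51, male -0.27, female 1.16) rose over all cells and in female cells and were not called in male cells. Aldoc, which is highest in this tissue, fell from 41.5 and 41.8 CPM to 31.5 and 30.7 CPM (log2 fold change -0.45 ± 0.043 (SE), adjusted p = 1.7e-05). Yet it fell in male cells (-1.2) and rose in female cells (0.57), and WT male cells were at 57.5 and 67.5 CPM against Grhl3-null male cells at 27.1 and 27.4 CPM. Also called were Pdk1 (0.29, male -0.079, female 0.49) and Slc16a1 (0.21, male 0.47, female 0.22) higher and Pfkl (-0.12, male -0.18, female 0.16), Slc16a3 (-0.16, male -0.19, female 0.26), Gpi1 (-0.20, male 0.39, female -0.36) and Ldhb (-0.55, male -0.38, female -0.77) lower.

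The study found Grhl3 mainly in Surface ectoderm / neural plate border, and far less of it in Neuromesodermal progenitors and Neuroepithelium. Surface ectoderm / neural plate border had 13 of 30 members called, 11 higher and 2 lower, against 13.9% of all genes (5.82% higher and 8.09% lower). At 100 CPM or more 6 of 15 were called against 28%. The tested members had a median log2 fold change of 0.14, and library totals gave 15 to 2. Slc16a1 was at 143 and 148 CPM in the WT libraries and at 193 and 191 CPM in the Grhl3-null libraries (log2 fold change 0.36 ± 0.051 (SE), adjusted p = 3.7e-05), and it was the 1 member called and higher in each sex. Pfkfb3 (9.55 and 7.03 CPM against 14.6 and 12.3 CPM, log2 fold change 0.66 ± 0.15 (SE), adjusted p = 0.0044), Pfkp (7.55 and 5.87 CPM against 8.79 and 12.5 CPM, log2 fold change 0.60 ± 0.17 (SE), adjusted p = 0.023), Eno3 (0.46, male 0.67, female 0.22) and Hk2 (0.35, male 0.27, female 0.36) rose over all cells. Pfkfb3 was at 0.50 in male and 0.69 in female cells and Pfkp at 0.012 in male and 1.08 in female cells. Gapdh fell (4185 and 4075 CPM against 3447 and 3587 CPM, log2 fold change -0.27 ± 0.046 (SE), adjusted p = 0.00029), again with opposite signs in male (0.20) and female cells (-0.49), as had Ldhb (-0.43 over all, 0.32 in male and -0.94 in female cells). Males were 25.2% and 29.4% of the WT cells and 57.1% and 52.8% of the Grhl3-null ones. Slc2a3, whose level peaks in this class, was not called (log2 fold change 0.13 ± 0.055, adjusted p = 0.13). The first WT library carried more haemoglobin RNA in this class, a sum of 276 CPM over 7 genes against 26.9 to 33.7 CPM in the other 3 libraries, and its part in these values was not tested. Of the dissociation and stress genes 1 was higher and 5 lower of 9 (Junb, log2 fold change -1.65, adjusted p = 2.9e-08), and of the axial progenitor genes 3 were higher and 1 lower of 6 (Fgf8, log2 fold change 0.55, adjusted p = 1.2e-06), and their part was not tested. DESeq2 called 6 members, as did edgeR without Grhl3-null replicate 2. Also called were Pdk1 (0.30, male -0.028, female 0.40), Eno1 (0.28, male 0.56, female 0.077), Pdk3 (0.22, male 0.085, female 0.23), Slc16a3 (0.20, male 0.31, female 0.13), Pgam1 (0.17, male 0.18, female 0.11) and Tpi1 (0.15, male 0.15, female 0.12) higher.

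Smaller classes gave few calls. Notochord had 4 of 29 members called (3.53% of all genes, 1.69% higher and 1.84% lower): Pdk1 (25.7 and 26.3 CPM against 47.1 and 42.2 CPM, log2 fold change 0.77 ± 0.16 (SE), adjusted p = 0.0075), Slc16a3 (0.56) and Hk2 (0.53) rose, and Ldhb (-0.58) fell. Intermediate mesoderm had 2 of 28 called (2.5%, 1.35% higher and 1.15% lower), Slc16a3 higher (0.38) and Ldhb lower (-1.18). Its WT cells were almost all female and its Grhl3-null cells almost all male, and library totals left 1 higher and 1 lower. In Endothelium / haematoendothelial progenitors Hk2 rose (0.42, adjusted p = 0.035), 1 of 29 members against 0.604% of all genes (0.289% higher and 0.315% lower). Erythroid cells, with 50 to 68 cells a library, had none of 27 called by edgeR (0.443% of all genes, 0.256% higher and 0.186% lower), with 0 called by DESeq2, and with library totals edgeR called 2 higher and 0 lower. At an unadjusted p under 0.05 edgeR gave 9 members, and 739 of all 8585 genes tested. The members tested had a median log2 fold change of 0.14. The unnamed cluster 0, led by Prrx1 and Hand2, had 13 of 31 called, 11 higher and 2 lower, against 10.3% (5.96% higher and 4.33% lower) and 5 of 14 against 17.4% at 100 CPM or more. Slc2a1 and Hk2 rose and Ldhb and Mpc1 fell there in each sex. Leaving out Grhl3-null replicate 1 or 2 left 1 or 2 members called. Cluster 10, led by Lefty2, had 4 of 29 called (3.5%, 1.86% higher and 1.64% lower), with Ldhb at 90.8 and 87.0 CPM against 29.6 and 31.1 CPM (-1.54). Its axial progenitor genes were lower in 5 of 6, at a sum of 501 and 587 CPM in WT against 207 and 241 CPM in Grhl3-null libraries, and their part was not tested. Cluster 11, led by Tbx4, had 4 of 29 called (4.2%, 1.29% higher and 2.91% lower), and both transporters fell there, Slc2a1 from 601 and 739.7 CPM to 264 and 289.8 CPM and Slc2a3 from 433 and 522 CPM to 181 and 156 CPM, while its male cells alone gave 1.03 and 0.82. Over all filtered cells, 19 of 31 members were called, 10 higher and 9 lower, against 35.5% (17.1% higher and 18.5% lower), with 11 to 7 under library totals. That sum also moves with the mix of classes. In cluster 0 the further calls were Pdk1 (0.46, male 0.061, female 1.07), Slc2a3 (0.44, male 0.014, female 0.86), Pfkfb3 (0.43, male 0.27, female 0.76), Pfkp (0.29, male 0.20, female 0.46), Slc16a1 (0.26, male 0.14, female 0.34), Tpi1 (0.20, male 0.05, female 0.34), Slc16a3 (0.20, male 0.05, female 0.30), Pdk3 (0.20, male 0.12, female 0.29) and Eno1 (0.16, male 0.22, female 0.083) higher. In cluster 10 they were Eno3 (0.86) higher and Slc2a1 (-0.55) and Slc16a3 (-0.69) lower. In cluster 11 they were Slc16a3 (0.28, male 0.25) and Eno1 (0.25, male 0.38) higher. Over all filtered cells, calls were made for Pfkp (0.61, male -0.064, female 1.16), Pfkfb3 (0.43, male 0.10, female 0.53), Hk2 (0.35, male 0.10, female 0.44), Slc16a1 (0.34, male 0.34, female 0.38), Pdk1 (0.32, male -0.012, female 0.56), Slc2a3 (0.29, male 0.048, female 0.58), Slc2a1 (0.24, male 0.32, female 0.18), Hk1 (0.14, male -0.059, female 0.30), Pdk3 (0.09, male 0.066, female 0.11) and Slc16a3 (0.074, male -0.015, female 0.23) higher and Dlat (-0.09, male 0.011, female -0.13), Gpi1 (-0.10, male 0.18, female -0.16), Gapdh (-0.10, male 0.15, female -0.17), Aldoa (-0.11, male -0.0068, female -0.081), Ldha (-0.12, male -0.13, female -0.058), Pkm (-0.17, male -0.037, female -0.19), Aldoc (-0.21, male -0.41, female -0.37), Mpc1 (-0.34, male -0.30, female -0.35) and Ldhb (-0.44, male -0.077, female -0.48) lower.

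**Figure D3:**
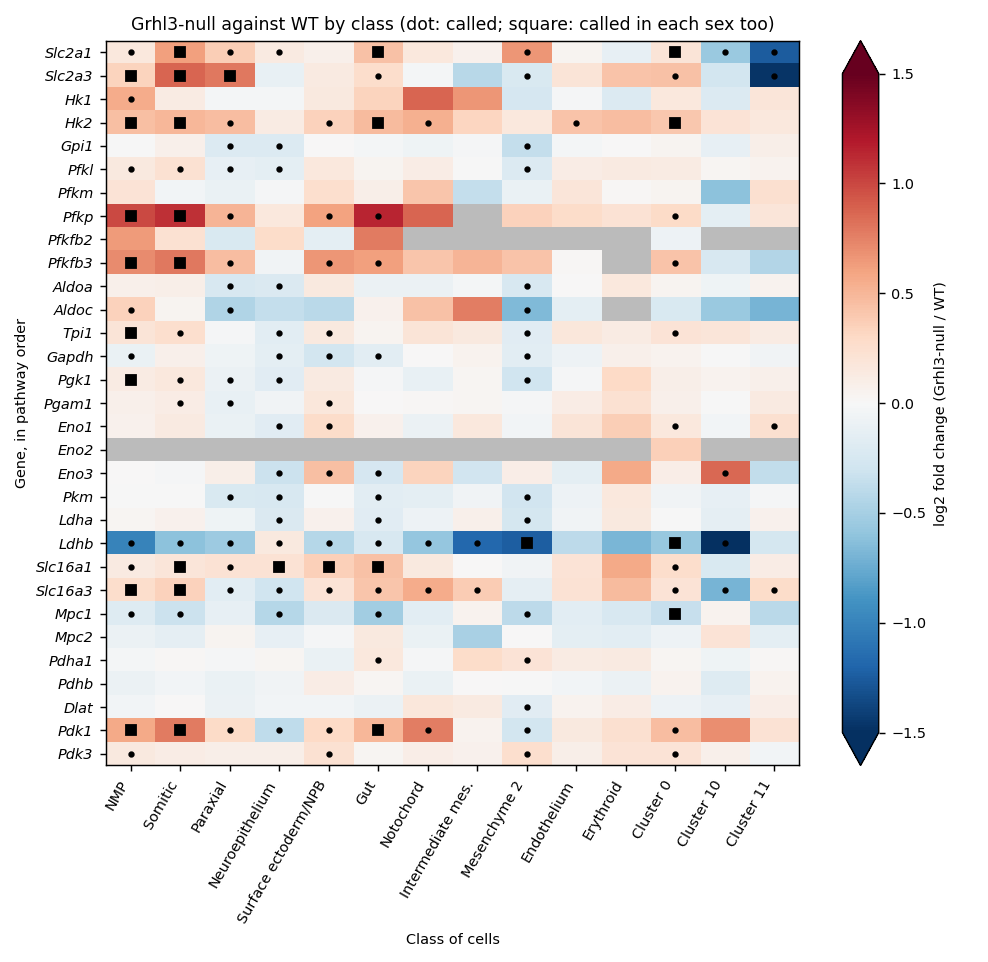
Colours give the log2 fold change, Grhl3-null over WT, of each gene (rows) in 14 classes (columns), with colours stopping at -1.5 and 1.5 and grey where a gene was not tested. Dots mark calls at adjusted p below 0.05, and squares mark calls with the same direction in male and in female cells too. Squares number 8 in Neuromesodermal progenitors, 8 in Somitic mesoderm, 4 in Gut, 4 in cluster 0 and at most 1 in any other class. The share of all genes that would carry a square was not counted.

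Ldhb was the member that fell in the most classes. It was called in 11 of the 14 classes tested, lower in 10 and higher in Neuroepithelium. In Neuromesodermal progenitors it was at 84.7 and 91.2 CPM in the WT libraries and at 43.9 and 45.2 CPM in the Grhl3-null libraries (2.00-fold lower, log2 fold change -1.0 ± 0.041 (SE), adjusted p = 6.6e-08). Split by sex, its level was 111 and 114 CPM in WT female cells, 45.3 and 51.2 CPM in WT male cells, 41.5 and 46.6 CPM in Grhl3-null female cells and 48.8 and 45.6 CPM in Grhl3-null male cells. The WT female cells stood apart and the other 3 groups lay together. The genotype difference was accordingly -1.39 (adjusted p = 1.0e-09) in female cells and -0.017 (adjusted p = 0.94) in male cells, and the test of that difference gave -1.37 ± 0.085 (SE) (adjusted p = 2.0e-15). Somitic mesoderm showed the same, with -1.08 in female and 0.16 in male cells (difference -1.23 ± 0.13 (SE), adjusted p = 7.5e-08). In Mesenchyme 2 and cluster 0, Ldhb fell in both sexes. The rise in Neuroepithelium was small (0.15, adjusted p = 0.043) and turned to -0.59 when cells were classed by marker score.

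The difference between the sexes was tested for every member, with library as a block, as a comparison added after the values by sex had been seen. In Neuromesodermal progenitors the genotype effect differed between female and male cells for 11 of 30 members, where 14.3% of all genes were called. It differed for 9 of 30 in Somitic mesoderm (5.21%), 8 of 30 in Gut (8.74%), 10 of 29 in Surface ectoderm / neural plate border (11.8%), 16 of 29 in Paraxial mesoderm (14.9%), 20 of 29 in Mesenchyme 2 (23.8%), 21 of 30 in Neuroepithelium (30.9%), 16 of 30 in cluster 0 (15.5%), 2 of 29 in Endothelium / haematoendothelial progenitors (1.19%) and 24 of 31 over all filtered cells (37.5%). Pfkp showed what this means. In Neuromesodermal progenitors it was at 14.0 and 17.4 CPM in WT male cells, 9.21 and 8.07 CPM in WT female cells, and between 21.8 and 23.4 CPM in Grhl3-null cells of either sex. The rise was larger in female cells (1.36) than in male cells (0.54; difference 0.83 ± 0.15 (SE), adjusted p = 7.5e-05), yet every Grhl3-null value lay above every WT value. In Neuroepithelium the signs were opposite, 1.18 in female and -0.59 in male cells, and over both Pfkp was not called (0.15, adjusted p = 0.44).

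**Figure D4:**
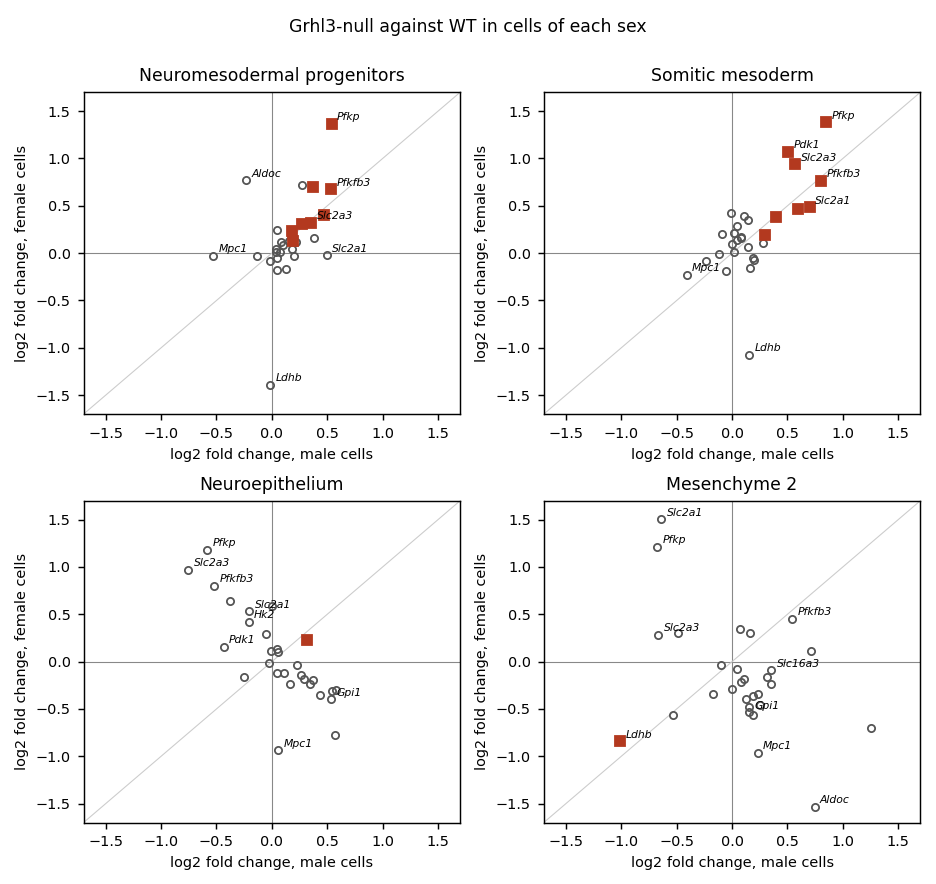
Each panel plots the log2 fold change, Grhl3-null over WT, in male cells (x) against that in female cells (y) for the genes tested in a class; filled squares are called with 1 direction in all, male and female cells, and the grey diagonal marks equal values. Squares lie in the upper right for Neuromesodermal progenitors and Somitic mesoderm, whereas most called genes of Neuroepithelium and Mesenchyme 2 lie in the quadrants of opposite sign.

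Whether the genotype effect itself differed between classes was tested with library as a block. Against Neuromesodermal progenitors, Neuroepithelium differed for 19 of 30 members, 18 with a lower value in Neuroepithelium and Ldhb with a higher one, where 14.1% of all genes differed. The difference was -0.94 ± 0.066 (SE) for Pdk1 (adjusted p = 1.4e-20), -0.83 ± 0.14 for Pfkp and 1.16 ± 0.056 for Ldhb. Somitic mesoderm differed from Neuromesodermal progenitors for 4 of 30 (1.02% of all genes), all with a higher value in Somitic mesoderm: Slc2a3 (0.53 ± 0.055), Slc2a1 (0.45 ± 0.034), Ldhb (0.38 ± 0.073) and Gapdh (0.17 ± 0.026). As a fold change, the rise of the transporters was thus larger in Somitic mesoderm, where they start low, and their rise in CPM was not tested between classes. Paraxial mesoderm was lower than Somitic mesoderm for 15 of 30 members (3.16%), among them Pfkp (-0.59 ± 0.13), Slc16a3 (-0.50 ± 0.043) and Aldoa (-0.33 ± 0.016). Surface ectoderm / neural plate border differed from Neuroepithelium for 17 of 30 (12.6%), with 15 higher and Ldhb (-0.59 ± 0.069) and Gapdh (-0.14 ± 0.027) lower. The pairs with unlike sex shares are those that hold Neuroepithelium or Paraxial mesoderm, and the part of sex in them was not tested.

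Summed over the 31 genes, the share of all UMIs moved little in the larger classes. It was 1.72% and 1.75% in WT against 1.78% and 1.84% in Grhl3-null cells of Neuromesodermal progenitors, 1.57% and 1.58% in WT against 1.69% and 1.72% in Grhl3-null cells of Somitic mesoderm, 1.76% and 1.75% in WT against 1.61% and 1.62% in Grhl3-null cells of Neuroepithelium and 1.33% and 1.36% in WT against 1.20% and 1.19% in Grhl3-null cells of Mesenchyme 2. The groups did not overlap in these 4 classes, and they did in Gut (1.61% and 1.56% in WT against 1.58% and 1.59% in Grhl3-null cells). In Erythroid cells, with no member called, the share was 0.809% and 0.764% in WT against 0.904% and 0.917% in Grhl3-null cells. Their haemoglobin sum was 175379 and 194283 CPM in WT against 132423 and 138734 CPM in Grhl3-null libraries, and its part was not tested. The glucose transporters alone went from 0.0232% and 0.0240% to 0.0389% and 0.0375% in Somitic mesoderm, and the lower pathway from 1.05% in each WT library to 0.949% and 0.967% in Neuroepithelium.

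**Figure D5:**
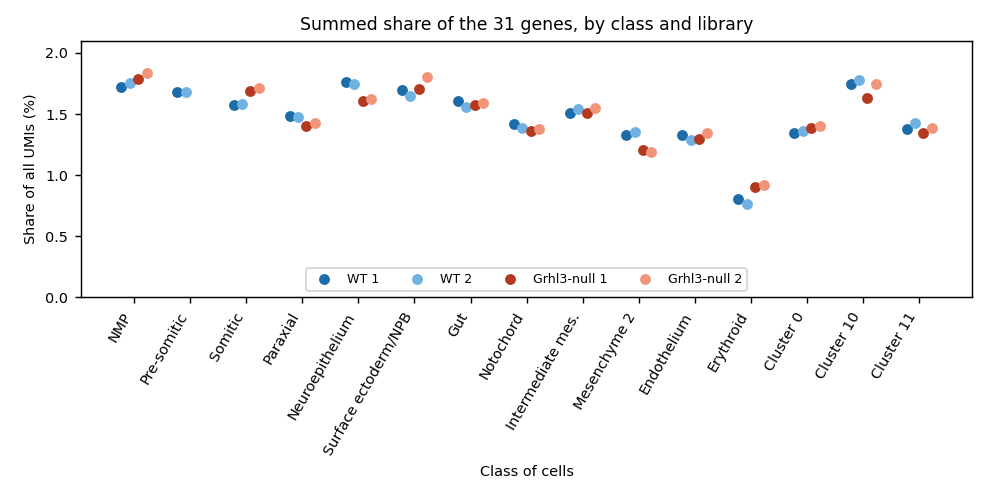
Points give the percent of all UMIs of a class that belong to the 31 genes, in each of the 4 libraries (WT blue, Grhl3-null red), with the axis from 0. Erythroid cells lie lowest in all libraries. Grhl3-null points lie above WT in Somitic mesoderm and Erythroid cells and below WT in Neuroepithelium and Mesenchyme 2.

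Related lists that hold no member were read beside these results. Of 18 other genes known to be induced by hypoxia, 12 of 17 tested were higher and 0 lower in Neuromesodermal progenitors (median log2 fold change 0.38), 12 of 16 and 0 in Somitic mesoderm (0.41), and 8 of 16 and 0 in Gut (0.39), while in Neuroepithelium 1 was higher and 2 lower of 16 (-0.051). Bnip3, a mitophagy receptor, was at 70.2 and 69.0 CPM against 126 and 116 CPM in Neuromesodermal progenitors (log2 fold change 0.78, adjusted p = 1.3e-06) and 60.02 and 58.5 CPM against 114 and 105 CPM in Somitic mesoderm (log2 fold change 0.88, adjusted p = 1.3e-08). Ero1l, an oxidase of the endoplasmic reticulum, was at 21.8 and 22.2 CPM against 37.6 and 39.5 CPM in the progenitors (log2 fold change 0.79, adjusted p = 7.9e-07). In male cells alone 7 of the list were higher and 0 lower in the progenitors, 7 and 0 in Somitic mesoderm and 4 and 0 in Gut. In female cells 10 were higher and 0 lower in the progenitors, 9 and 1 in Somitic mesoderm and 7 and 0 in Gut. In Neuroepithelium the list stood at 1 higher and 4 lower in male cells and 7 higher and 0 lower in female cells. Of these 18 genes, 12 of the 15 with a promoter window held ACGTG (80.0%).

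Of 16 citric acid cycle genes, 0 were higher and 6 lower in Neuromesodermal progenitors, 1 and 9 in Paraxial mesoderm, 0 and 4 in Somitic mesoderm and 1 and 4 in Neuroepithelium. Fh1 (fumarase) was at 95.1 and 92.7 CPM against 70.0 and 74.0 CPM in the progenitors (log2 fold change -0.40, adjusted p = 4.4e-05). The sexes parted here too, with 1 higher and 0 lower in male cells of the progenitors against 0 and 8 in female cells, 2 and 0 against 0 and 4 in Paraxial mesoderm, 0 and 0 against 0 and 4 in Somitic mesoderm, and 10 and 0 against 1 and 9 in Neuroepithelium. Of 7 pentose phosphate pathway genes, which divert glucose-6-phosphate to ribose and NADPH, 0 were higher and 2 lower in Neuromesodermal progenitors, namely Tkt (257 and 264 CPM against 211 and 222 CPM, log2 fold change -0.29, adjusted p = 0.00022) and Taldo1 (222 and 225 CPM against 179.6 and 187 CPM, log2 fold change -0.31, adjusted p = 0.00012), which both belong to the non-oxidative branch, and 0 and 4 in Neuroepithelium and in Gut. In male cells the counts were 0 and 0 in the progenitors, 2 and 0 in Neuroepithelium and 0 and 4 in Gut, and in female cells 0 and 2, 0 and 4, and 0 and 2. With library totals Neuroepithelium had 0 higher and 2 lower. Of 39 other genes of glucose, pyruvate and lactate metabolism, 2 of 24 tested were higher and 2 lower in Neuromesodermal progenitors, 2 and 0 of 24 in Somitic mesoderm and 4 and 2 of 28 in Gut, with Bsg, the partner protein of the lactate transporters, higher in Somitic mesoderm (log2 fold change 0.22, adjusted p = 0.00034). Axial progenitor genes summed to 1472 and 1478 CPM in WT and 1455 and 1539 CPM in Grhl3-null Neuromesodermal progenitors, 0 higher and 2 lower of 6, while in Neuroepithelium Fgf8 fell from 83.4 and 68.8 CPM to 18.2 and 18.9 CPM (log2 fold change -2.06, adjusted p = 1.6e-09). The stress genes in Neuromesodermal progenitors were 1 higher and 4 lower of 10, at a sum of 177 to 190.3 CPM in WT and 179 to 183 CPM in Grhl3-null libraries. In Neuroepithelium, the Y-linked Ddx3y was at 6.50 and 10.5 CPM against 29.6 and 29.98 CPM. The part of these lists in the members' values was not tested.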

How the data were processed

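Processing by the authors. Cells of dissociated caudal parts were captured with the 10x Genomics 3′ v3.1 kit. The authors counted reads against mm10 with Cell Ranger 3.0.0 and deposited raw UMI counts per gene and barcode for the barcodes called as cells. The barcode and gene lists hold names only. The annotation release is not given in the sources used here, and all 4 libraries list the same genes.

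Processing here. The study's limits on cells were applied (a minimum of 3000 genes and 7500 UMIs, with mitochondrial UMIs no more than 7%). Counts were normalised with sctransform 0.4.2 and clustered in Seurat 5.3.0 (3000 variable features, 21 members among them left out, 30 principal components, resolution 0.4). With members kept in, 80.2% of cells had the same class. A cluster was named when its 30 leading genes held enough of the study's markers for 1 class. Doublet scores marked under 0.5% of cells by an automatic threshold, so doublets were left in and the top 5% were removed as an alternative. A cell was called male with at least 2 Y-linked and at most 2 Xist UMIs and female with at least 3 Xist and at most 1 Y-linked UMI. Counts were summed per class and library, with at least 20 cells in each library, and tested with edgeR 4.0.16 (TMM scaling, its default filter on low counts, quasi-likelihood test, Benjamini-Hochberg adjustment over all genes tested in the class; R 4.3.3). Differences of the genotype effect between classes or sexes were tested with library as a block. DESeq2 1.42.0 was an alternative, as were library totals, no filter, a replicate block, leaving out each library, other class definitions and cells of 1 sex. The tests were tried on simulated data.

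The members and lists were chosen with earlier results of these data known. All members are accounted for, and in each class every member called is named, with fuller values for those of the largest change with at least 10 CPM or of 1 direction in both sexes. CPM values of sums over many cells rest on 209833527 to 226723903 UMIs per library. The SD and SE cover counting error and the spread between 2 reactions, and the spread between embryos was not measured. Replicate numbers did not pair the libraries. Gene positions were taken from the GENCODE vM21 annotation of mm10, and promoter sequences from RefSeq (GRCm38.p6), in which 30 of 31 members matched by symbol.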

Additional observations from a re-analysis of the deposited data

Results flagged for a closer look

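Results below were picked out because the Grhl3-null effect differed between classes or between sexes by a test of that difference. Groups of 2 libraries are too small to name a library as an outlier.

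Between Neuroepithelium and Neuromesodermal progenitors the genotype effect differed for 19 members. Neuroepithelium had the lower value for Pdk1 (-0.94 on the log2 scale), Pfkp (-0.83), Pfkfb3 (-0.75), Slc16a3 (-0.55), Slc2a3 (-0.44) and Eno1 (-0.22), and the higher value for Ldhb (1.16). Between Somitic mesoderm and Neuromesodermal progenitors it differed for 4 members, with Somitic mesoderm higher for Slc2a3 (0.53), Slc2a1 (0.45) and Ldhb (0.38). Paraxial mesoderm differed from Somitic mesoderm for 15 members and was lower for Pfkp (-0.59), Slc16a3 (-0.50), Pdk1 (-0.49), Slc2a1 (-0.24) and Eno1 (-0.23). Surface ectoderm / neural plate border differed from Neuroepithelium for 17 members and was higher for Pfkfb3 (0.70), Pdk1 (0.68), Slc16a3 (0.49), Eno1 (0.43) and Slc2a3 (0.24), and lower for Ldhb (-0.59). With library totals in place of TMM scaling, the 4 counts were 19, 4, 15 and 18.

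Between female and male cells the genotype effect differed for 21 members in Neuroepithelium, 20 in Mesenchyme 2, 16 in Paraxial mesoderm, 16 in cluster 0, 11 in Neuromesodermal progenitors, 10 in Surface ectoderm / neural plate border, 9 in Somitic mesoderm, 8 in Gut and 2 in Endothelium / haematoendothelial progenitors. With 5 WT and 3 Grhl3-null embryos pooled, cells of 1 sex can come from 1 embryo, and a difference between sexes cannot be told apart from one between embryos.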

How the results depend on the processing

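The 155 calls of a member in a class or over all filtered cells were recomputed under each alternative in which the class could be formed. Unnamed clusters have no counterpart in another clustering and were left out of those, and some classes had too few cells of 1 sex. With the same direction and still called were 154 with a replicate block, 147 with library totals, 147 at a mitochondrial limit of 5%, 146 without doublets, 138 without the filter and 102 by DESeq2, which gave no adjusted p for 5, and no sign changed under these. With members kept in the clustering 129 were still called and 5 were not, and no sign changed. Leaving out 1 library kept 115 to 128 calls with no sign changed. Cells of 1 sex and other class definitions changed signs, as given below, and the cause was not tested. Low UMIs limit what could be called for Eno2 (187) and Pfkfb2 (684), and 39 to 78 cells a library for Intermediate mesoderm.

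The replicate numbers did not pair the libraries, with correlations of same-numbered deviations from -0.17 (Erythroid) to 0.07. The replicate block gave 21 called members in Neuromesodermal progenitors, 19 in Somitic mesoderm, 15 in Gut, 18 in Neuroepithelium, 20 in Mesenchyme 2, 20 in Paraxial mesoderm, 13 in Surface ectoderm / neural plate border and 22 over all cells. Calls over all genes rose as well, from 2463 to 3876 in Neuromesodermal progenitors and from 1471 to 2429 in Somitic mesoderm. They went from 2608 to 2816 in Gut, 2736 to 3139 in Neuroepithelium and 2483 to 3276 in Mesenchyme 2. In Paraxial mesoderm they went from 3019 to 3771, and over all cells from 6097 to 7048. Crossing the numbers in Erythroid cells, chosen after seeing the data, gave 32 genes and 0 members.

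The number of called members moved by over 1.5 times under these settings. Calls over all genes moved too, so the counts below are not results about the members alone. In Somitic mesoderm edgeR called 1471 of 12807 genes and DESeq2 401 of 3924. Without the filter the calls in Intermediate mesoderm went from 243 of 9719 genes to 2 of 16044. In male cells the number was 11 in all filtered cells (from 19), 0 in Endothelium / haematoendothelial progenitors (from 1), 9 in Gut (from 15), 9 in Paraxial mesoderm (from 16), 9 in Somitic mesoderm (from 14), 6 in cluster 0 (from 13) and 1 in cluster 11 (from 4). Without the filter the number was 0 in Endothelium / haematoendothelial progenitors (from 1), 3 in Erythroid cells (from 0) and 0 in Intermediate mesoderm (from 2). With DESeq2 the number was 0 in Endothelium / haematoendothelial progenitors (from 1), 0 in Intermediate mesoderm (from 2), 10 in Mesenchyme 2 (from 17), 0 in Notochord (from 4), 9 in Somitic mesoderm (from 14), 6 in Surface ectoderm / neural plate border (from 13), 1 in cluster 10 (from 4) and 2 in cluster 11 (from 4). Without doublets the number was 0 in Endothelium / haematoendothelial progenitors (from 1), 6 in Erythroid cells (from 0) and 2 in Notochord (from 4). In female cells the number was 3 in Endothelium / haematoendothelial progenitors (from 1), 4 in Erythroid cells (from 0) and 9 in Gut (from 15). With library totals the number was 2 in Erythroid cells (from 0). With classes by marker score the number was 8 in Intermediate mesoderm (from 2) and 11 in Mesenchyme 2 (from 17). At resolution 0.8 the number was 4 in Intermediate mesoderm (from 2), 4 in Mesenchyme 2 (from 17) and 9 in Neuroepithelium (from 16). At a mitochondrial limit of 5% the number was 1 in Notochord (from 4). Leaving out each library in turn gave 10 to 19 in Neuromesodermal progenitors, 11 to 14 in Mesenchyme 2, 6 to 16 in Surface ectoderm / neural plate border, 1 to 2 in Endothelium / haematoendothelial progenitors, 0 to 2 in Erythroid cells, 0 to 3 in Intermediate mesoderm, 2 to 4 in Notochord, 1 to 13 in cluster 0, 2 to 5 in cluster 10 and 2 to 4 in cluster 11. Without WT replicate 1 the number was 2 in Endothelium / haematoendothelial progenitors, 2 in Erythroid cells, 1 in Intermediate mesoderm, 10 in Neuromesodermal progenitors and 2 in cluster 10. Without WT replicate 2 the number was 2 in Erythroid cells and 11 in Neuromesodermal progenitors. Without Grhl3-null replicate 1 the number was 2 in Endothelium / haematoendothelial progenitors, 0 in Intermediate mesoderm, 2 in Notochord, 1 in cluster 0 and 2 in cluster 10. Without Grhl3-null replicate 2 the number was 1 in Erythroid cells, 0 in Intermediate mesoderm, 11 in Mesenchyme 2, 6 in Surface ectoderm / neural plate border, 2 in cluster 0 and 2 in cluster 11.

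The log2 fold changes of called members that changed sign were these. In male cells, in Endothelium / haematoendothelial progenitors Hk2 -0.11, in Gut Slc16a3 -0.20, in Mesenchyme 2 Slc2a1 -0.64, Gpi1 0.15, Pfkl 0.0010, Aldoa 0.12, Aldoc 0.74, Tpi1 0.19, Gapdh 0.084, Pgk1 0.19, Pkm 0.15, Ldha 0.25, Mpc1 0.23 and Dlat 0.11, in Neuroepithelium Slc2a1 -0.20, Gpi1 0.53, Pfkl 0.054, Aldoa 0.29, Gapdh 0.54, Pgk1 0.23, Eno1 0.35, Eno3 0.57, Pkm 0.17, Ldha 0.045, Slc16a3 0.11 and Mpc1 0.059, in Neuromesodermal progenitors Aldoc -0.23 and Gapdh 0.12, in Paraxial mesoderm Gpi1 0.39, Pfkp -0.27, Pgk1 0.17, Pkm 0.13 and Pdk1 -0.079, in Somitic mesoderm Ldhb 0.16, in Surface ectoderm / neural plate border Gapdh 0.20, Ldhb 0.32 and Pdk1 -0.028, in all filtered cells Hk1 -0.059, Gpi1 0.18, Pfkp -0.064, Gapdh 0.15, Slc16a3 -0.015, Dlat 0.011 and Pdk1 -0.012 and in cluster 11 Slc2a1 1.03 and Slc2a3 0.82. With classes by marker score, in Intermediate mesoderm Slc16a3 -0.14, in Mesenchyme 2 Slc2a1 -0.33, Gpi1 0.056, Pfkl 0.057, Aldoa 0.069, Tpi1 0.18, Pgk1 0.014, Ldha 0.10, Dlat 0.053 and Pdk1 0.50 and in Neuroepithelium Slc2a1 -0.069 and Ldhb -0.59. At resolution 0.8, in Mesenchyme 2 Slc2a3 0.17, Gpi1 0.044, Aldoa 0.016, Tpi1 0.064 and Pdk1 0.35 and in Neuroepithelium Slc2a1 -0.066 and Ldhb -0.031. In female cells, in Mesenchyme 2 Slc2a3 0.28, in Neuroepithelium Pfkl 0.10 and Pdk1 0.16, in Neuromesodermal progenitors Slc2a1 -0.024 and in Paraxial mesoderm Pfkl 0.16, Aldoc 0.57, Pgam1 0.066 and Slc16a3 0.26.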

Other observations

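Outside the classes described above, the other hypoxia-inducible genes stood at 8 higher and 0 lower of 14 tested in Notochord, 8 higher and 0 lower of 16 tested in cluster 0, 7 higher and 1 lower of 15 tested in Surface ectoderm / neural plate border, 7 higher and 1 lower of 16 tested in Paraxial mesoderm and 3 higher and 1 lower of 16 tested in Mesenchyme 2. In male cells of Paraxial mesoderm 0 were higher and 3 lower. Genes of axial progenitors were 0 higher and 6 lower of 6 tested in Gut, with a sum of 623 and 686 CPM in WT against 469 and 520.0 CPM in Grhl3-null libraries, and 5 higher and 0 lower of 6 tested in Paraxial mesoderm, with a sum of 172 and 222 CPM in WT against 260.1 and 260.1 CPM in Grhl3-null libraries. Of the 5 dissociation and stress genes called in Mesenchyme 2, 0 were higher.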
